A study of Mus musculus with 36 samples.

Results

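Mitochondrial and peroxisomal beta-oxidation break fatty acids down to acetyl-CoA, and in the fasted liver much of that acetyl-CoA is turned into ketone bodies. The 33 genes described here encode proteins of these steps and were taken by name. They comprise 2 genes of fatty acid uptake and binding, 4 of activation and the carnitine shuttle and 10 of the mitochondrial oxidation spiral. Another 3 are of electron transfer from its flavoproteins, 2 of ketone body metabolism and 12 were grouped as peroxisomal, Crat among them. These roles were assigned by list, and where each protein lies in the cell was not examined. All 33 were among the 136300 genes counted in liver. In mouse embryonic fibroblasts (MEFs) 32 were among 32266 genes, and Fabp1 was not analysed.

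Polyadenylated RNA was sequenced in 12 liver and 24 MEF libraries, 3 a group. The livers were those of male mice aged 4 weeks, frozen and powdered whole, taken at zeitgeber time 14 after free feeding or a 24 h fast. The mice labelled LKO carried floxed alleles of Vps15 (Vps15f/f) and a Cre under the name of Ttr, which encodes the hepatocyte protein transthyretin, and the label of the other mice is WT with no further allele given. Vps15, encoded by Pik3r4, is known as the partner protein that the lipid kinase Vps34 needs for its work in autophagy and endosomes. The MEFs were of 1 line with floxed Vps15 alleles, transduced with an adenovirus carrying GFP or CRE. Library titles label the GFP cells WT and the CRE cells Vps15KO. Cells were kept in serum-free basal medium, without methionine for 4 h, or without it for 4 h and then with it for 1 h or 4 h.

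As background, a fatty acid that enters a hepatocyte is bound by a carrier protein, joined to coenzyme A and passed through the mitochondrial membranes as a carnitine ester. The spiral then removes acetyl units through a dehydrogenase, a hydratase, a second dehydrogenase and a thiolase, while peroxisomes shorten very long chains. During fasting, the nuclear receptor PPARα, encoded by Ppara, is known to raise the mRNA of many of these genes together with its partner RXR, by binding direct repeats of AGGTCA-like hexamers. Carnitine palmitoyltransferase 1 controls entry into mitochondria.

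Liver libraries held 9110836 to 12870944 counts. Values are given in order of libraries a, b and c of a group, as CPM, a gene's counts scaled to a common library total with TMM factors, which centre the bulk of genes between libraries, or as log2 fold changes ± standard error (SE) from edgeR's quasi-likelihood test. The p-values were adjusted over the 23875 genes tested, with a threshold of 0.05. Pik3r4 (ENSMUSG00000032571, chromosome 9, 105642978 to 105687657, plus strand, GRCm38) was at 17.6 to 23.1 CPM in fed WT, 21 to 24.7 in fasted WT, 22.2 to 25.2 in fed LKO and 18.2 to 24 in fasted LKO livers. The 4 ranges overlapped, and counts over the whole gene do not check a deletion of part of it. The livers are labelled as hepatocytes, and 11 of 12 hepatocyte markers listed were used here. Their summed level was 36930 to 39270 CPM in fed WT, 45170 to 46980 in fasted WT, 16060 to 18210 in fed LKO and 16850 to 19790 in fasted LKO livers. In LKO against WT liver 10 of the 11 fell when fed (median -1.22) and 11 of 11 when fasted (median -1.34), against 22.8% and 28.1% of all genes. The 10 macrophage markers summed to 1476 to 1867, 484 to 676, 2715 to 3051 and 2349 to 2724 CPM in the same order. The summed markers of cholangiocytes (50.9 to 57.1 and 43.3 to 51.3 CPM in fed and fasted WT, 143 to 210.5 and 165 to 222 in fed and fasted LKO) were also higher in both LKO groups, as were those of fibroblasts (229 to 266 and 79.6 to 85.4 CPM in WT, 486 to 711 and 386 to 487 in LKO). Of these and the adipocyte markers, Adipoq, Plin1, Lep and the fibroblast marker S100a4 were at 0 in at least 1 library. A sum follows its most abundant genes. Of 5 cholangiocyte markers 2 were called higher in fed and 5 in fasted LKO liver, against 23.3% and 28% of all genes. Of 6 endothelial markers 3 were higher and 2 lower in LKO than in WT liver, both fed and fasted. Of all genes 46.2% were called in either direction when fed and 56.1% when fasted. The part of these markers in the results below was not tested, and in whole liver fewer hepatocytes and less RNA per hepatocyte cannot be told apart.

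The members together made up 8767 to 10330 CPM in fed WT liver and 17580 to 18980 CPM in fasted WT liver. They made up 4183 to 5124 CPM in fed LKO and 4677 to 6207 CPM in fasted LKO liver. Every library of the WT fasted group was therefore above every other library, and every LKO library was below every WT library, as the map of the 33 genes over 12 livers shows. Fasting raised 30 of 33 members in WT liver, against 12.5% of all genes, and lowered 1, against 13.8%. The other members were Fabp1 and Etfb, which did not pass, and Abcd2, which fell, and the median change was 0.90. In LKO liver fasting raised 2 and lowered 0, where 0.834% and 0.683% of all genes did so, and the median was 0.10. This count of 2 was 0 with only the compared groups in the fit, 5 with DESeq2 and 6 with no filter on low counts. Fed LKO liver had 26 members lower and 1 higher than fed WT liver, against 22.8% and 23.3% of all genes, with a median of -0.79. Fasted LKO liver had 32 lower and 0 higher than fasted WT liver, against 28.1% and 28% of all genes, or 56.1% in all, with a median of -1.52. The median over all genes tested was -0.01, -0.02, 0.01 and 0.01 in these comparisons, which share groups with each other. The difference between the fasting changes of LKO and WT liver, tested as an interaction, passed for 23 members, all with a smaller or opposite change in LKO, against 5.7% of all genes in that direction and 6.33% in the other.

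**Figure D1:**
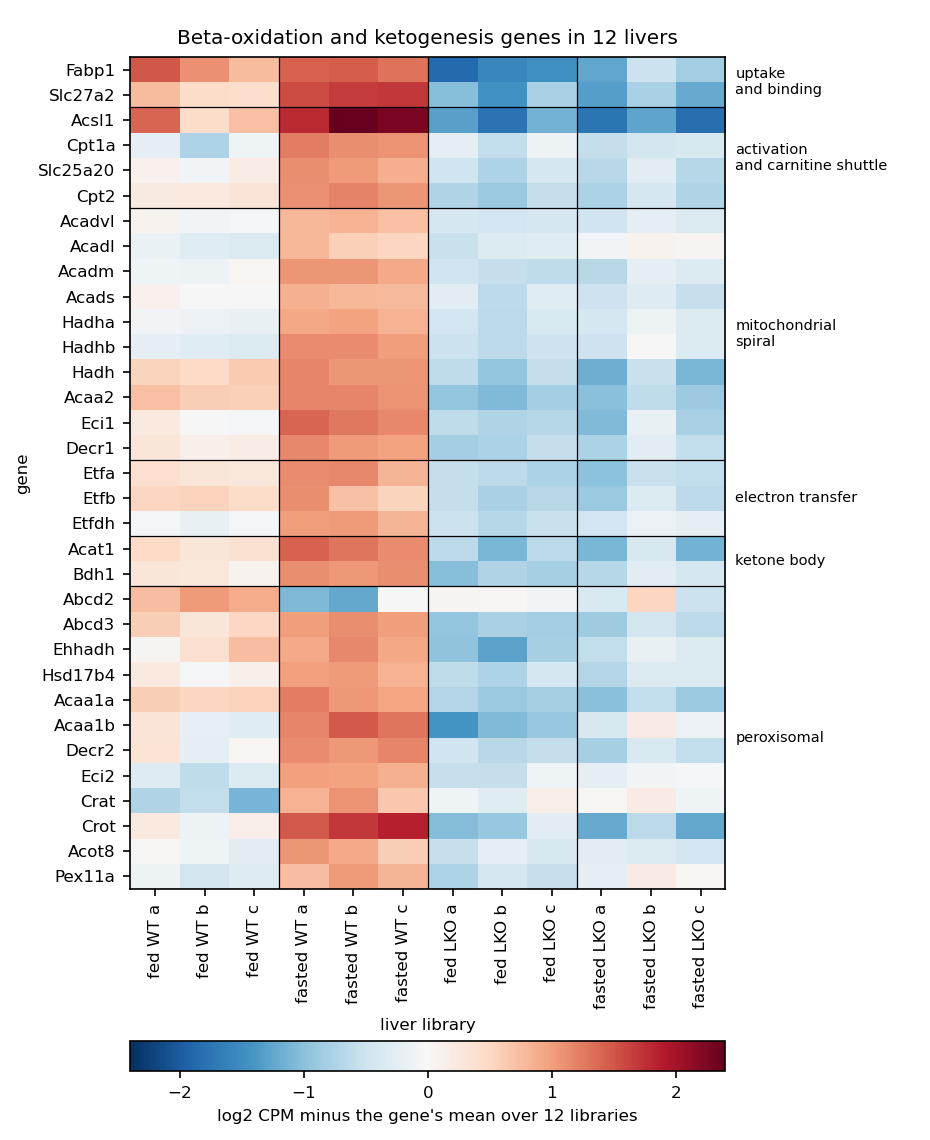
Each row is 1 of the 33 genes, grouped by role, and each column is 1 of the 12 liver libraries; colour is log2 CPM minus the mean of the gene over the 12 libraries. The 3 fasted WT columns are above the mean for nearly all genes, with Abcd2 as the exception, and LKO columns are mostly below it.

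Scaling bears on the fed comparison of genotypes. With library sizes alone, in place of TMM, the median over all genes moved to 0.39 for LKO against WT in fed liver and to 0.52 in fasted liver, and the split of members became 16 lower and 3 higher in fed liver and 30 lower and 1 higher in fasted liver. The fed calls of Slc25a20, Acadvl, Acadm, Acads, Hadha, Eci1, Etfdh, Abcd2, Decr2 and Crot were lost and those of Cpt1a and Eci2 gained, while in fasted liver Acadl and Crat lost theirs and Abcd2 gained one. In fed liver the median of the 33 members became -0.42, with -0.08 for the mitochondrial spiral, of which 3 of 10 were lower, -0.37 for peroxisomes, -0.42 for the carnitine shuttle, -0.60 for electron transfer, -0.73 for ketone bodies and -1.81 for uptake. In fasted liver the median of the members became -1.01, with -0.87 for the spiral and -0.88 for peroxisomes. For fasting in WT liver this scaling moved the median over all genes to -0.19 and left 28 members higher and 1 lower, with a median of 0.71.

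Genes of fatty acid uptake and binding had the largest deficit of any role in fed LKO liver, with both members lower (median -2.19). Fabp1 encodes the liver fatty acid-binding protein (ENSMUSG00000054422, chromosome 6, 71199827 to 71205023, plus strand). It was at 865, 656 and 516 CPM in fed WT and 821, 837 and 753 CPM in fasted WT livers. In LKO livers it was at 83.9, 104 and 110.2 CPM when fed and 129.5, 214 and 172 CPM when fasted. All 6 LKO values lay below all 6 WT values, and the fed and fasted WT values overlapped. The genotype difference was -2.77 ± 0.20 when fed (adjusted p = 3.77e-08) and -2.22 ± 0.20 when fasted (adjusted p = 1.54e-07). Fasting gave 0.24 ± 0.19 in WT (adjusted p = 0.379) and 0.79 ± 0.19 in LKO liver (adjusted p = 0.0526), neither past the threshold, although the LKO groups did not overlap. The LKO change passed with no filter, with Ensembl genes only and with DESeq2.

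Slc27a2 encodes a very-long-chain acyl-CoA synthetase that also takes up fatty acids. It was at 839, 678 and 669 CPM in fed WT and 1476, 1596 and 1610 CPM in fasted WT livers, and its level there rose 2.14-fold. In LKO livers it was at 246, 182 and 293 CPM when fed and 199, 290.0 and 217 CPM when fasted, which overlap. It was 3.03-fold lower in fed LKO and 6.63-fold lower in fasted LKO than in WT liver (adjusted p = 9.33e-07 and 1.99e-09). The fasting changes differed by -1.13 ± 0.24 (adjusted p = 0.00465).

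The sequence before Fabp1 is shown because only it held a direct repeat of the PPAR type among the 27 member windows used from RefSeq (GRCm38.p6). The repeat was searched as AGGNCANAGGNCA on both strands from 250 bases before to 50 after the start. Of all 32851 windows 0.381% held it. The stretch is chr6:71199629-71199826 on the plus strand, stopping where the first exon of the GENCODE annotation begins, and capitals mark the match, which is in reverse orientation and starts 67 bases before the RefSeq start.
Fabp1: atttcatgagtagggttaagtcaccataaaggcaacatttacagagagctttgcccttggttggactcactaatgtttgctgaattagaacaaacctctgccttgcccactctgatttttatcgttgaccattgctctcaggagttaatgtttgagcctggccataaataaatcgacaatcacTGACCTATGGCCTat
The same window held the only TATAAA among the member windows, 30 bases before the start, a motif found in 13.6% of all windows. A match to these letters is a description of the sequence, not evidence of binding. Windows of Acaa2, Decr1, Acat1, Abcd2, Hsd17b4 and Crat were not used here.

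All 4 genes of activation and the carnitine shuttle rose with fasting in WT liver (median 1.09), none passed the test in LKO liver (median -0.08), and all 4 had a smaller fasting change in LKO liver by the interaction. Acsl1 encodes the acyl-CoA synthetase that activates long-chain fatty acids (ENSMUSG00000018796, chromosome 8, 46471037 to 46536051, plus strand). It was at 1310, 676 and 813 CPM in fed WT and 1722, 2610 and 2356 CPM in fasted WT livers. LKO livers had 201.2, 145 and 227 CPM when fed and 148, 207 and 141 CPM when fasted. The LKO groups overlapped each other and lay below every WT library. The genotype difference in fasted liver was -3.75 ± 0.29 (adjusted p = 3.56e-07), a 13.5-fold lower level and the lowest log2 change of the 33 members in that comparison. In fed liver it was -2.29 ± 0.27 (adjusted p = 2.60e-05).

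Cpt1a encodes the liver form of carnitine palmitoyltransferase 1, in the outer mitochondrial membrane (ENSMUSG00000024900, chromosome 19, 3322334 to 3385733, plus strand). It was at 396, 278 and 433 CPM in fed WT and 1091, 1005 and 987 CPM in fasted WT livers. In LKO livers it was at 400.5, 308 and 430.1 CPM when fed and 315, 344 and 356 CPM when fasted. The fed groups of both genotypes overlapped, and only the fasted WT libraries stood above the rest. Fasting in WT liver raised it by 1.48 ± 0.16 (adjusted p = 2.78e-06), a 2.78-fold rise. The fasting change in LKO liver was -0.17 ± 0.15 (adjusted p = 0.621), and the changes differed by -1.64 ± 0.22 (adjusted p = 0.000133). LKO against WT in fed liver gave 0.04 ± 0.15 (adjusted p = 0.85), with a sign that turned when either 1 fed WT or 1 fed LKO library was left out. With library sizes alone Cpt1a was called higher in fed LKO liver.

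The sequence before Cpt1a is shown because its fed groups overlapped between genotypes and its fasting changes differed. It is chr19:3323051-3323284 on the plus strand, up to the first GENCODE exon in this window, with an AGGTCA hexamer (94 bases before the RefSeq start) and 2 GC boxes, searched as GGGCGG, in capitals and all in reverse orientation.
Cpt1a: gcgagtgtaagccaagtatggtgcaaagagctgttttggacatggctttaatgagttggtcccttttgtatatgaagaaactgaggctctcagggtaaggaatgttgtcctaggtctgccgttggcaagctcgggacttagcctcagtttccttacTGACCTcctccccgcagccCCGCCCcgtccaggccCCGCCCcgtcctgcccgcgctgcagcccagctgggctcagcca
The hexamer AGGTCA, which can lie within the longer repeat, was in the windows of 5 of 27 members (Acadm, Acadvl, Cpt1a, Fabp1 and Slc27a2) and in 16.3% of all windows. GC boxes were in 21 of 27 and in 35.7% of all windows. No member window held CACGTG, which 7.15% of all windows held.

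Slc25a20, the carnitine-acylcarnitine carrier of the inner membrane, was at 126, 112 and 134 CPM in fed WT and 255, 238 and 215 CPM in fasted WT livers. LKO livers had 84.5, 70.2 and 89.5 CPM when fed and 74.2, 99.3 and 73 CPM when fasted. Cpt2, the carnitine palmitoyltransferase that releases acyl-CoA into the matrix, was at 203, 205 and 218 CPM in fed WT and 374, 399.6 and 364 CPM in fasted WT livers. For Cpt2, LKO livers were at 106, 94.1 and 118 CPM when fed and 104, 132 and 106 CPM when fasted. For both genes the fasted WT libraries were highest, the fed WT libraries came next, and the LKO groups overlapped at the bottom. Fasting in WT liver changed Slc25a20 by 0.93 ± 0.14 and Cpt2 by 0.86 ± 0.12. In fasted liver the genotype difference was -1.52 ± 0.14 for Slc25a20 (adjusted p = 5.74e-08). For Cpt2 it was -1.73 ± 0.12 (adjusted p = 3.36e-09).

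**Figure D2:**
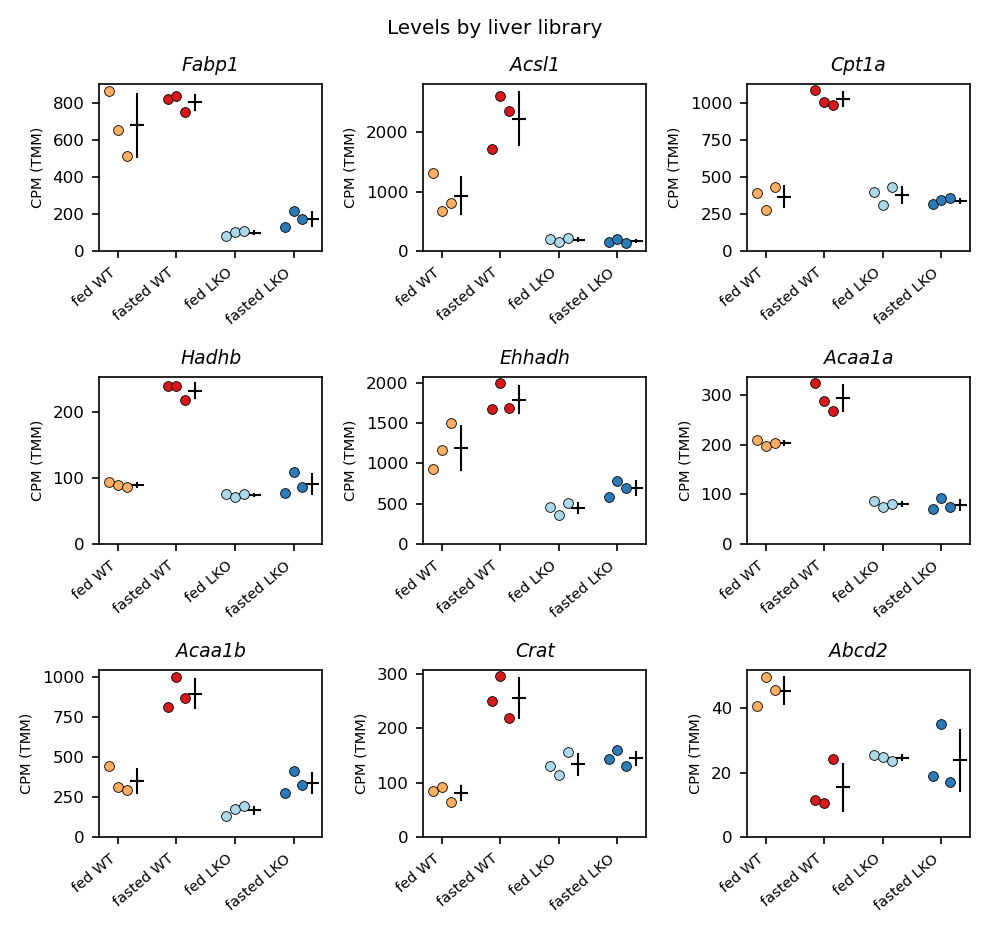
Each panel shows 1 gene, with CPM (TMM-scaled, axis from 0) on the y axis and 1 point per library of the 4 liver groups; the bar beside the points is the mean ± SD of 3 libraries. Cpt1a and Hadhb stand apart mainly in fasted WT liver, Fabp1 and Acsl1 are low in both LKO groups, and Abcd2 is lowest in fasted WT liver.

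The 10 genes of the mitochondrial spiral all rose with fasting in WT liver, from 0.52 for Acaa2 to 1.38 for Hadhb. None passed in LKO liver (median 0.14). All 10 were lower in fasted LKO than in fasted WT liver (median -1.38), while 8 of 10 were lower in fed liver (median -0.46), Acadl and Hadhb being the others, a count of 3 with library sizes alone. The fasting change was smaller in LKO liver for 8 of 10, with Acadl and Acaa2 as the others. This role thus had the smallest median deficit of the 6 roles in fed LKO liver.

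Hadha and Hadhb encode the subunits of the trifunctional protein, which carries out the later steps of the spiral on long chains. Hadhb was at 93.3, 89 and 85.6 CPM in fed WT and 239, 239 and 217 CPM in fasted WT livers. LKO livers had 76, 70.5 and 76.3 CPM when fed and 76.9, 109 and 86.6 CPM when fasted. Its fasted WT libraries were above the other 9, and its fasting change was 1.38 ± 0.12 in WT liver, the smallest adjusted p of any member in that comparison (4.95e-07). In LKO liver the fasting change was 0.29 ± 0.12 (adjusted p = 0.212), and the changes differed by -1.09 ± 0.17 (adjusted p = 0.000497). Hadhb in fed LKO against fed WT liver was at -0.27 ± 0.12 (adjusted p = 0.0805). Hadha was at 459, 437 and 426 CPM in fed WT and 913, 931 and 856 CPM in fasted WT livers. For Hadha, LKO livers had 351, 305 and 371 CPM when fed and 359, 439 and 382 CPM when fasted. As for Hadhb, its fasted WT libraries were above the other 9, with 1.03 ± 0.11 for fasting in WT liver and -0.37 ± 0.11 for LKO in fed liver (adjusted p = 0.0138), a call lost without fed WT library a and without fed LKO library b, and a value at 0.00697 with library sizes alone.

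The 2 genes lie head to head on chromosome 5, with RefSeq starts 273 bases apart and windows that share 228 bases. The stretch between their first GENCODE exons, chr5:30155163-30155247, is shown on the strand of Hadhb, with GC boxes in capitals, because it precedes both genes.
Hadha-Hadhb: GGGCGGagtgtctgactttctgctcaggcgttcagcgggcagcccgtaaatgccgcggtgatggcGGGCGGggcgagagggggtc

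Acaa2 encodes the mitochondrial ketoacyl-CoA thiolase, the last step of the spiral. It was at 549.9, 500.0 and 495 CPM in fed WT and 751, 754 and 704 CPM in fasted WT livers. Among LKO livers Acaa2 was at 174, 161 and 190.5 CPM when fed and 167, 219.7 and 183 CPM when fasted. Every LKO library lay below every WT library, and the genotype difference was -1.56 ± 0.12 when fed and -1.96 ± 0.12 when fasted (adjusted p = 2.17e-08 and 1.19e-09). Hadh, the dehydrogenase for shorter hydroxyacyl-CoA, was at 412, 396 and 438 CPM in fed WT and 634, 586 and 589.8 CPM in fasted WT livers. LKO livers had 185, 146 and 189.6 CPM of Hadh when fed and 126, 195 and 133 CPM when fasted. As for Acaa2, all LKO values were below all WT values, with -1.26 ± 0.15 when fed and -2.00 ± 0.15 when fasted. The rise of Hadh with fasting in WT liver, 0.54 ± 0.15 (adjusted p = 0.0122), was lost without fed WT library b and with library sizes alone. Decr1, the mitochondrial dienoyl-CoA reductase for unsaturated chains, was at 190.4, 170.1 and 177 CPM in fed WT and 346, 316 and 305 CPM in fasted WT livers. LKO livers had 88.8, 91.3 and 104 CPM when fed and 92.1, 129 and 104 CPM when fasted, all below the WT values.

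The acyl-CoA dehydrogenases differ in the chain length they act on. Acadm, for medium chains, was at 271, 267 and 298 CPM in fed WT and 603, 604 and 545 CPM in fasted WT livers. LKO livers had 209, 195 and 191 CPM when fed and 182, 250.3 and 230.0 CPM when fasted. Acadm rose by 1.06 ± 0.12 with fasting in WT liver and was lower in fed LKO liver, at -0.49 ± 0.12, a call lost with library sizes alone. Acadl, for long chains, was at 204, 186 and 181 CPM in fed WT and 396, 338 and 324 CPM in fasted WT livers. In LKO livers Acadl was at 158, 181 and 186 CPM when fed and 219, 240.5 and 238 CPM when fasted. The fed groups of Acadl overlapped between genotypes, and the LKO groups did not overlap between feeding states. Its fasting change in LKO liver was 0.41 ± 0.11 (adjusted p = 0.0714), called with no filter, with Ensembl genes only and with DESeq2. Acadl had the genotype difference closest to 0 in fasted liver among the spiral genes, at -0.60 ± 0.11 (adjusted p = 0.000197).

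Acadvl, for very long chains, ran from 98.6 to 109.5 CPM in fed WT, 170.3 to 184 in fasted WT, 75.3 to 78 in fed LKO and 74.3 to 88.2 in fasted LKO livers. Acads, for short chains, ran from 141 to 154, 246 to 256, 92 to 119 and 98 to 116 CPM in the same order. Eci1, a mitochondrial enoyl-CoA isomerase, ran from 92 to 112, 211 to 248, 57.9 to 62.3 and 45.8 to 84.2 CPM. In each of these 3 genes the fasted WT libraries were highest and the LKO groups overlapped each other. The genotype difference in fed liver was -0.42 ± 0.10 for Acadvl, -0.42 ± 0.12 for Acads and -0.74 ± 0.17 for Eci1, and each of these calls was lost with library sizes alone.

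**Figure D3:**
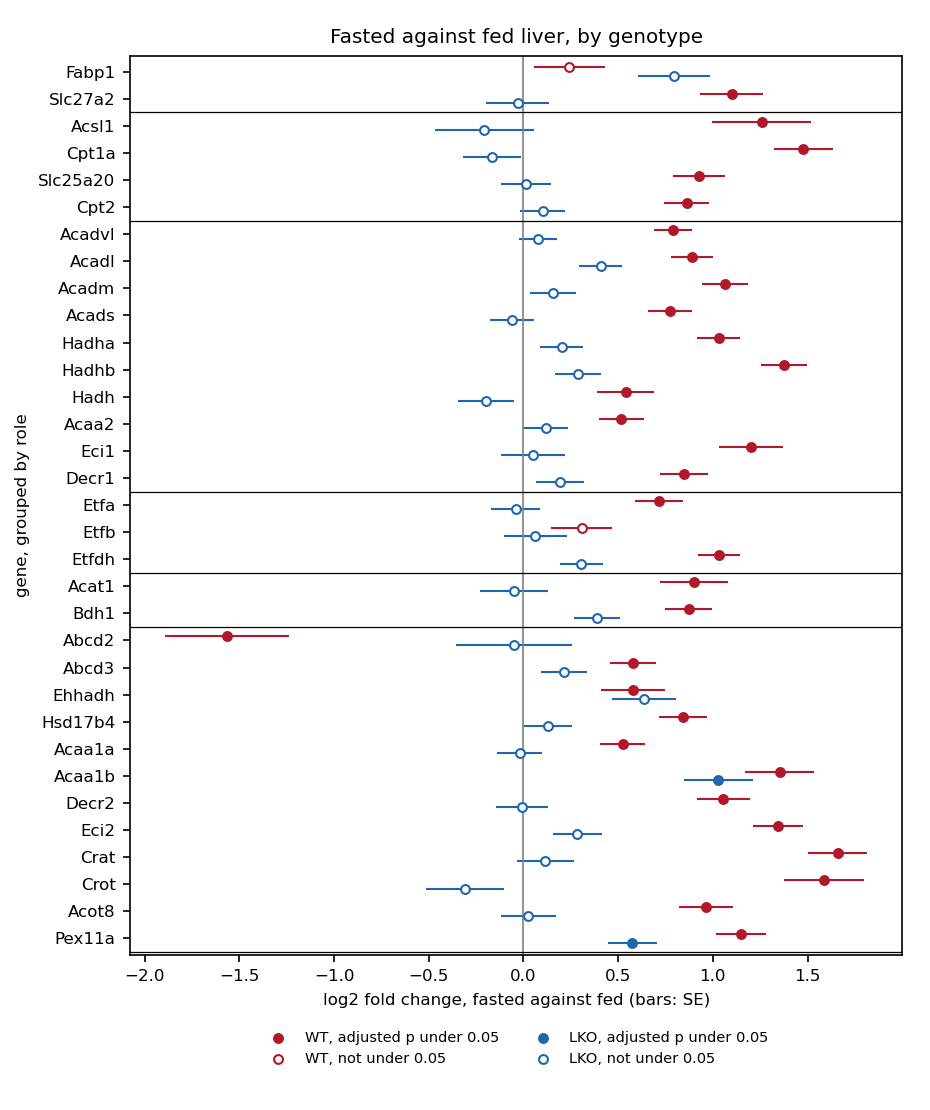
Points are log2 fold changes of fasted against fed liver with SE bars on the x axis for the 33 genes on the y axis, red for WT and blue for LKO; filled points have an adjusted p under 0.05. Red points lie mostly to the right of the zero line, Abcd2 lies below 0, and blue points lie around that line.

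Electron transfer flavoprotein takes electrons from the acyl-CoA dehydrogenases and passes them to the respiratory chain. Its genes Etfa and Etfb and that of its oxidoreductase, Etfdh, were all lower in LKO liver, fed (median -0.97) and fasted (median -1.41), and Etfa and Etfdh rose with fasting in WT liver. Etfdh was at 158, 145 and 158 CPM in fed WT and 325, 330.1 and 287 CPM in fasted WT livers. Among LKO livers Etfdh was at 115, 102 and 113 CPM when fed and 118, 148 and 140.3 CPM when fasted. The fasted WT values were highest, and fasting gave 1.03 ± 0.11 in WT (adjusted p = 4.06e-06) and 0.31 ± 0.11 in LKO liver (adjusted p = 0.156). Etfa was at 144, 134 and 131 CPM in fed WT and 238, 241 and 192 CPM in fasted WT livers. LKO livers had 72.8, 70.6 and 64.6 CPM of Etfa when fed and 54.7, 74.8 and 72.6 CPM when fasted, which overlap. Its genotype difference was -0.97 ± 0.13 when fed and -1.73 ± 0.13 when fasted. Etfb, the other subunit, was at 23.9, 24.3 and 22.5 CPM in fed WT and 36.1, 27.2 and 24.2 CPM in fasted WT livers. LKO livers had 11.3, 9.75 and 10.5 CPM when fed and 8.95, 13.2 and 10.7 CPM when fasted. The WT groups of Etfb overlapped, and its fasting change of 0.31 ± 0.16 did not pass (adjusted p = 0.176).

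Both ketone body genes rose with fasting in WT liver (median 0.89), neither passed in LKO liver, and both were lower in LKO liver, fed (median -1.10) and fasted (median -1.82). Acat1 encodes the thiolase that joins acetyl-CoA units to acetoacetyl-CoA. It was at 429, 376 and 395 CPM in fed WT and 817, 747 and 677 CPM in fasted WT livers. LKO livers had 200.1, 145 and 195 CPM when fed and 143, 237 and 141 CPM when fasted. The fasted LKO group was spread widely, with library b above the other 2, and every LKO library was below every WT library. In fasted liver the genotype difference was -2.10 ± 0.19 (adjusted p = 9.93e-08). Bdh1, which interconverts acetoacetate and hydroxybutyrate, was at 239.5, 235 and 206 CPM in fed WT and 422, 401 and 423 CPM in fasted WT livers. Among LKO livers Bdh1 was at 95.8, 118 and 113 CPM when fed and 121, 161 and 146 CPM when fasted. The groups did not overlap in LKO liver either, but the change of 0.39 ± 0.12 did not pass (adjusted p = 0.108), except with no filter. The interaction passed for Acat1, at -0.95 ± 0.25 (adjusted p = 0.022), and not for Bdh1, at -0.49 ± 0.17 (adjusted p = 0.078).

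Of the 12 genes grouped as peroxisomal, 11 rose with fasting in WT liver (median 1.01) and Abcd2 fell. In LKO liver Acaa1b and Pex11a rose, the only members called in that comparison, and the median was 0.12. In fed LKO against fed WT liver 8 were lower, Crat was higher, and Eci2, Acot8 and Pex11a did not pass (median -0.74). In fasted liver 11 were lower and Abcd2 did not pass (median -1.39). The interaction passed for 7 of 12, and not for Abcd2, Abcd3, Ehhadh, Acaa1b and Pex11a.

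Acaa1a (ENSMUSG00000036138, chromosome 9, 119339676 to 119350299, plus strand) and Acaa1b (ENSMUSG00000010651, chromosome 9, 119148023 to 119157093, minus strand) both encode the peroxisomal ketoacyl-CoA thiolase. Acaa1a was at 209.9, 198 and 204 CPM in fed WT and 325, 288 and 269 CPM in fasted WT livers, and at 86.1, 75.3 and 80.1 CPM in fed LKO and 70.0, 93.1 and 75.1 CPM in fasted LKO livers. Acaa1b was at 447, 314 and 294 CPM in fed WT and 813, 1005 and 873 CPM in fasted WT livers, and at 133, 174 and 191 CPM in fed LKO and 277, 414 and 326 CPM in fasted LKO livers. The LKO groups of Acaa1a overlapped, while every fasted LKO library of Acaa1b was above every fed LKO library. Fasting in LKO liver changed Acaa1a by -0.02 ± 0.12 (adjusted p = 0.954) and Acaa1b by 1.03 ± 0.18 (adjusted p = 0.0182). In WT liver the changes were 0.52 ± 0.12 and 1.35 ± 0.18. For Acaa1b the difference between genotypes in that change was -0.32 ± 0.26 (adjusted p = 0.469). Both genes were lower in fed LKO liver, at -1.34 ± 0.12 and -1.08 ± 0.18, and in fasted LKO liver, at -1.89 ± 0.12 and -1.40 ± 0.18. The call of Acaa1b in LKO liver was lost without fed LKO library a, without fasted LKO library a, without fasted LKO library c and with only the compared groups in the fit. The longest transcripts of both genes were 93.5% identical, with 34% of the 50-base runs of Acaa1a found in Acaa1b, so reads may be split between them and their separate values are uncertain.

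The promoters of this pair are shown because the transcripts are so alike and fasting in LKO liver passed the test for Acaa1b and not for Acaa1a. Their RefSeq windows were 63.7% identical over aligned bases. Capitals mark CCAAT or its reverse, ATTGG, and GC boxes. Acaa1a is chr9:119341160-119341293, plus strand, beginning after an annotated exon, and Acaa1b is chr9:119157094-119157343, minus strand.
Acaa1a: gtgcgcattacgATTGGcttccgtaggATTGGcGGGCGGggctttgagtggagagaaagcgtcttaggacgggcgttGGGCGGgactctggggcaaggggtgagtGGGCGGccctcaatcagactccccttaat
Acaa1b: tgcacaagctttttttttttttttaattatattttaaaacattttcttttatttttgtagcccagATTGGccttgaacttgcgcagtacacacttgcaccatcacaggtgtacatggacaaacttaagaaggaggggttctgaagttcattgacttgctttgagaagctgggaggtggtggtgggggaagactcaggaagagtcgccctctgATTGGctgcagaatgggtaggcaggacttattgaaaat
The annotated genes of Cpt1a and Acaa1a begin upstream of the RefSeq starts used, so both printed stretches lie in introns of longer transcripts. Acaa1a had 3 GC boxes in its window, and none was matched in that of Acaa1b. CCAAT was in the windows of 12 of 27 members and in 37.4% of all windows.

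Ehhadh encodes the bifunctional enzyme of the inducible peroxisomal pathway (ENSMUSG00000022853, chromosome 16, 21761287 to 21787807, minus strand). It was at 931, 1159 and 1496 CPM in fed WT and 1678, 1992 and 1688 CPM in fasted WT livers. LKO livers had 454, 365 and 514 CPM when fed and 588, 784 and 700.1 CPM when fasted. Neither genotype's fed and fasted groups overlapped, and fasting gave 0.58 ± 0.17 in WT (adjusted p = 0.0174) and 0.64 ± 0.17 in LKO liver (adjusted p = 0.0652). The LKO change passed with no filter, with Ensembl genes only and with DESeq2. The difference between these changes was 0.06 ± 0.24 (adjusted p = 0.913). The WT call was lost without fed WT library a, without fed WT library b, without fasted WT library b and with library sizes alone. Hsd17b4, the other peroxisomal bifunctional enzyme, was at 306 to 365 CPM in fed WT, 556 to 632 in fasted WT, 186 to 231 in fed LKO and 191 to 246 in fasted LKO livers. It rose by 0.84 ± 0.13 in WT liver.

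Abcd2 and Abcd3 encode transporters that bring very long chains into peroxisomes. Abcd2 (ENSMUSG00000055782, chromosome 15, 91145871 to 91191799, minus strand) was at 40.7, 49.7 and 45.6 CPM in fed WT and 11.6, 10.4 and 24.2 CPM in fasted WT livers. In LKO livers it was at 25.6, 24.8 and 23.5 CPM when fed and 19.1, 35.1 and 17.2 CPM when fasted. The WT groups did not overlap, with the fasted one lower, and the LKO groups did. Fasting changed it by -1.56 ± 0.33 in WT liver (adjusted p = 0.00479), the only fall among the 33. The difference between its fasting changes, 1.52 ± 0.45 (adjusted p = 0.0511), passed with library sizes alone, no filter, DESeq2 and without fasted WT library c or fasted LKO library c. Its lower level in fed LKO liver, -0.88 ± 0.31 (adjusted p = 0.0357), lost its call when any 1 of the 6 fed libraries was left out. The higher value in fasted LKO liver, 0.64 ± 0.33 (adjusted p = 0.121), passed with DESeq2, with no filter, with library sizes alone and without fasted WT library c. Abcd3 was at 305, 246 and 285 CPM in fed WT and 406, 439.7 and 403 CPM in fasted WT livers. LKO livers had 105, 118 and 114 CPM of Abcd3 when fed and 112, 149 and 130.4 CPM when fasted. All of its LKO values were below all WT values, with -1.31 ± 0.12 when fed and -1.67 ± 0.12 when fasted (adjusted p = 1.74e-07 and 5.77e-09).

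Crat and Crot encode carnitine acyltransferases for acetyl and medium-chain groups. Crat (ENSMUSG00000026853, chromosome 2, 30400471 to 30415813, minus strand) was at 85.1, 92.6 and 64.8 CPM in fed WT and 249.6, 296 and 219.6 CPM in fasted WT livers. LKO livers had 131, 114 and 156 CPM when fed and 143, 159.6 and 131 CPM when fasted. Both LKO groups lay between the fed WT and fasted WT groups, without overlap with either. Crat was therefore higher in fed LKO liver, at 0.72 ± 0.15 (adjusted p = 0.000814), the only rise among the members there, and lower in fasted LKO liver, at -0.82 ± 0.15 (adjusted p = 0.000176). Fasting in WT liver raised it 3.16-fold (adjusted p = 8.31e-07), and in LKO liver the change was 0.11 ± 0.15 (adjusted p = 0.749). Crot was at 192, 151 and 183 CPM in fed WT and 452, 531 and 595 CPM in fasted WT livers. In LKO livers Crot was at 79.9, 87.6 and 136 CPM when fed and 70.4, 105 and 69.5 CPM when fasted. Its fasting change was 1.59 ± 0.21 in WT and -0.31 ± 0.21 in LKO liver (adjusted p = 7.98e-05 and 0.472), and the difference of -1.90 ± 0.29 was the lowest among the members.

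Pex11a, which is known to promote the division of peroxisomes, was at 118, 95.2 and 104 CPM in fed WT and 215, 262 and 226 CPM in fasted WT livers. LKO livers had 77.1, 96.5 and 88.2 CPM when fed and 110.4, 147 and 133 CPM when fasted. The feeding groups did not overlap in either genotype. It rose by 1.15 ± 0.13 in WT and by 0.58 ± 0.13 in LKO liver (adjusted p = 0.0383), the latter a call kept when fed LKO library b was left out and lost without any other of the 6 LKO libraries. Eci2, a peroxisomal enoyl-CoA isomerase, was at 118, 96.5 and 116 CPM in fed WT and 289, 287 and 265 CPM in fasted WT livers. LKO livers had 99.8, 98.1 and 137 CPM of Eci2 when fed and 127, 139.7 and 141 CPM when fasted. As for Cpt1a, its fed groups overlapped between genotypes, with a difference of 0.01 ± 0.13 (adjusted p = 0.94), and its fasted WT libraries stood above all others. Decr2, the peroxisomal dienoyl-CoA reductase, was at 205, 140.0 and 169 CPM in fed WT and 363, 336 and 371 CPM in fasted WT livers. In LKO livers Decr2 was at 117, 104 and 111 CPM when fed and 94.6, 128 and 109 CPM when fasted. It was lower in fasted LKO liver by a log2 change of -1.69 ± 0.14 (adjusted p = 2.23e-08). Acot8, a thioesterase, ran from 17 to 20.9 CPM in fed WT, 30.7 to 42.1 in fasted WT, 13.8 to 17.4 in fed LKO and 14.8 to 17 in fasted LKO livers.

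**Figure D4:**
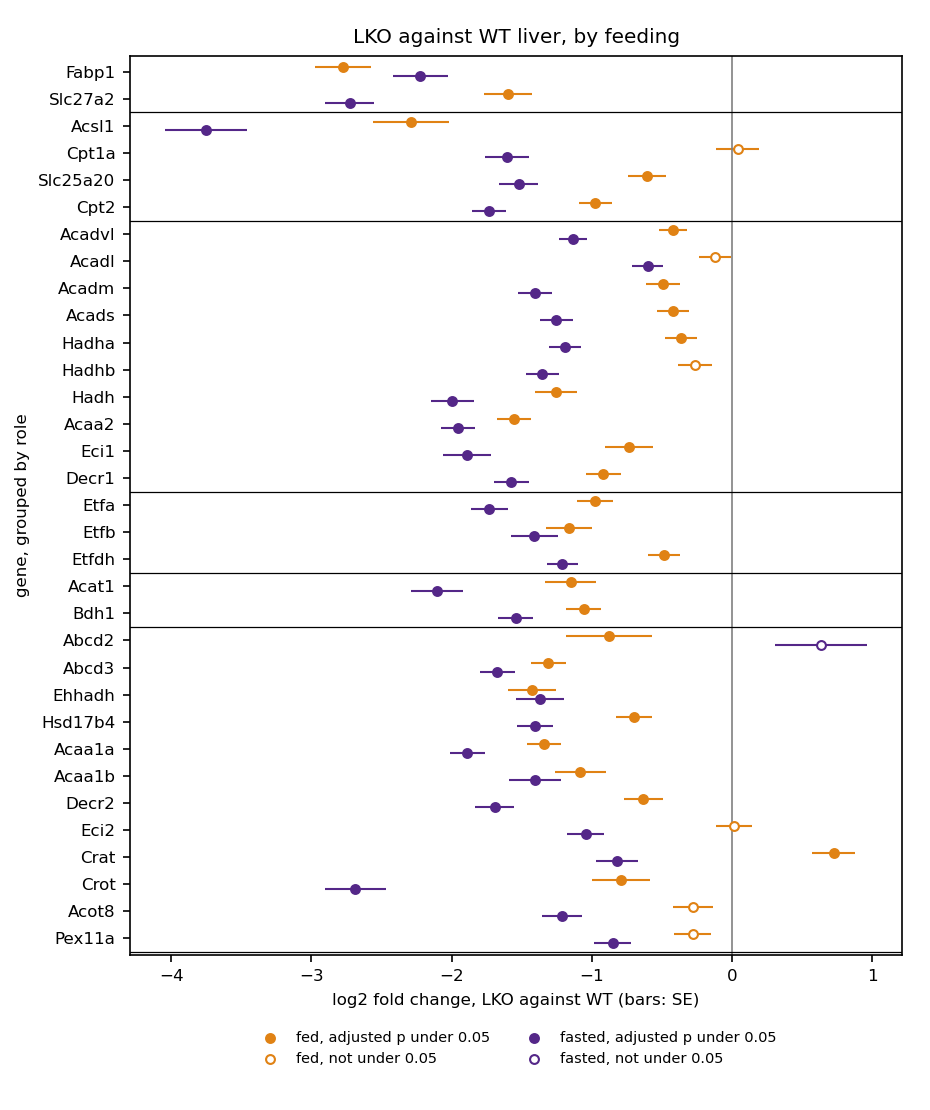
Points are log2 fold changes of LKO against WT liver with SE bars on the x axis for the 33 genes on the y axis, orange for fed and purple for fasted livers; filled points have an adjusted p under 0.05. Fasted points lie to the left of fed points for most genes, and Crat is the only filled point to the right of the zero line.

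Set side by side, the median fasting change in WT liver was 1.09 for the carnitine shuttle, 0.87 for the mitochondrial spiral, 0.72 for electron transfer, 0.89 for ketone bodies and 1.01 for peroxisomes. In LKO liver the same medians were -0.08, 0.14, 0.06, 0.17 and 0.12. The mitochondrial spiral summed to 2380 to 2556 CPM in fed WT, 4170 to 4567 in fasted WT, 1375 to 1563 in fed LKO and 1442 to 1870 in fasted LKO livers. The peroxisomal genes summed to 2867 to 3316, 5462 to 6119, 1460 to 1797 and 1819 to 2416 CPM. In both sets the fasted LKO libraries were below every fed WT library. The members of these sets share the same libraries, so the medians are descriptions and were not tested against each other.

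Of the 23 interaction calls, 5 were lost when certain single libraries were left out. That of Hadh was lost with 9 of the 12 leave-outs, all but fed WT library c, fed LKO library b and fasted LKO library b, and its value ran from -0.96 to -0.62. That of Acaa1a was also lost with 9, all but fasted WT library c, fed LKO library b and fasted LKO library b (-0.67 to -0.43). Acat1 lost its call with 7, kept without fed WT libraries a or c, fasted WT library c, fed LKO library b or fasted LKO library b (-1.24 to -0.82). Acsl1 lost its call with 7, kept without fed WT libraries a or b, fasted WT library a, fed LKO library b or fasted LKO library b (-1.77 to -1.27). Decr1 lost its call with 5, those of fed WT library b, fasted WT library a, fed LKO library c and fasted LKO libraries a and c (-0.80 to -0.55). The other 18, Cpt1a, Crat and Hadhb among them, passed with every single library left out. With library sizes alone the calls of Hadh, Decr1 and Acaa1a were lost, and with no filter those of Acsl1 and Acaa1a. Calls were gained for Acadl and Pex11a with Ensembl genes only and with DESeq2, for Bdh1 with Ensembl genes only and for Fabp1, in the higher direction, with no filter.

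Within groups many members shared their highest or lowest library, counted over the members only and not over all genes. In fasted LKO liver library b had the highest value of 30 of the 33 members and library a the lowest of 25. In fed WT liver library a was highest for 23, and in fasted WT liver library c was lowest for 23. Fed LKO library b was lowest for 21 members. Highest values were less one-sided in fasted WT liver, with 12, 16 and 5 members for libraries a, b and c. A group's spread in 1 member is therefore not independent of its spread in another.

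Levels between genes were compared per kilobase of exon (CPM per kb). The length joined all annotated exons of a gene and can exceed that of the transcript expressed, so places in this order are approximate. Those of Acaa1a and Acaa1b are also uncertain because reads may be split between them. In fed WT liver Fabp1 was highest at 1228 CPM per kb, before Ehhadh at 401, Acaa2 at 339.7, Slc27a2 at 194 and Acaa1b at 179, the last 2 within the spread of their libraries. Abcd2 was lowest at 7.63 CPM per kb, after Acot8 at 9.49. Fabp1 and Ehhadh were first and second in all 4 groups, and Acot8 and Abcd2 were last. Acsl1 moved most in this order, from place 9 in fed WT and 6 in fasted WT liver (213 CPM per kb) to 26 in fed LKO and 28 in fasted LKO liver (15.8 CPM per kb). Cpt1a was at place 18 in fed WT, 12 in fasted WT, 9 in fed LKO and 13 in fasted LKO liver.

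Of 92 other genes of the pathway, 88 were tested in liver. Fasting in WT liver raised 40 and lowered 9 (median 0.31), against 12.5% and 13.8% of all genes. In LKO liver it raised 3 and lowered 1 (median -0.02), against 0.834% and 0.683%. LKO liver had 46 lower and 13 higher when fed (median -0.43), against 22.8% and 23.3% of all genes. When fasted it had 62 lower and 13 higher (median -0.80), against 28.1% and 28%. The interaction passed for 26 with a lower and 5 with a higher fasting change in LKO liver, against 5.7% and 6.33% of all genes. The same shares of all genes stand beside the counts of each list below.

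Among the other ketone body genes, 7 of 8 tested, 2 rose and 3 fell with fasting in WT liver (12.5% and 13.8% of all genes). In LKO against WT liver 4 of 7 were lower and 1 higher when fed (22.8% and 23.3% of all genes). When fasted, 3 were lower and 2 higher (28.1% and 28%). The interaction passed for 2 with a lower and 2 with a higher fasting change in LKO liver (5.7% and 6.33%). The genes named next stand for part of this list only: those that rose with fasting in WT liver, and those with a lower interaction, are counted here and not described. Slc16a6, a ketone body exporter, changed by -2.04 ± 0.17 and Oxct1, which uses ketone bodies in tissues other than liver, by -1.40 ± 0.24. Slc16a6 was lower in fed LKO liver, at -1.25 ± 0.15, and its fasting change was higher in LKO than in WT liver by 2.23 ± 0.23 (adjusted p = 1.48e-05). Oxct1 was higher in fasted LKO than in fasted WT liver, at 1.48 ± 0.23. Bdh2, a cytosolic dehydrogenase related to Bdh1 by name, had a difference of 1.23 ± 0.36 between the fasting changes (adjusted p = 0.0326), a call lost with 6 of the 12 leave-outs, those of fed WT library c, fasted WT libraries b and c, fed LKO libraries a and b and fasted LKO library a.

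Of 26 other mitochondrial and uptake genes tested, 10 rose and 3 fell with fasting in WT liver (12.5% and 13.8% of all genes). The carnitine transporter Slc22a5 rose by 2.08 ± 0.17, the fatty acid transporter Slc27a1 by 2.77 ± 0.25 and the intestinal-type binding protein Fabp2 by 2.47 ± 0.22. The fasting change was smaller in LKO liver for Slc22a5, by -1.92 ± 0.24, and for Slc27a1, by -2.58 ± 0.33 (adjusted p = 0.0001 and 0.000254). In fed LKO liver 9 of 26 were lower and 7 higher, not far from the 22.8% and 23.3% of all genes. The bile acid and fatty acid-CoA ligase gene Slc27a5 was at -2.37 ± 0.15 and the medium-chain synthetases Acsm3 and Acsm1 at -1.91 ± 0.15 and -2.17 ± 0.18. In fasted LKO liver 15 were lower and 9 higher (28.1% and 28% of all genes). Values were -3.60 ± 0.16 for Acsm3, -2.49 ± 0.15 for Slc27a5 and 2.73 ± 0.19 for Fabp4, the fatty acid-binding protein of adipocytes and macrophages. Fabp4 also rose with fasting in LKO liver, by 1.09 ± 0.17 (adjusted p = 0.011), beside Slc27a4, by 0.40 ± 0.10, while Acsm3 changed by -0.66 ± 0.16. None of these 3 passed without fasted LKO library a, without fasted LKO library c or with only the compared groups in the fit. Acsm3 and Slc27a4 were also lost without fed LKO library a or c, and Slc27a4 without fed LKO library b. Fabp4 is 1 of 5 adipocyte markers, which summed to 11.8 to 12.7 CPM in fed WT, 7.97 to 10.7 in fasted WT, 27.4 to 31.8 in fed LKO and 45.9 to 77.2 in fasted LKO livers. That sum includes Fabp4 itself, and only 2 of the 5 were tested. The other marker tested was at -1.37 in fed and 0.40 in fasted LKO against WT liver. With fasting in LKO liver it was at -0.60, and none of these values was called. The interaction of Acsm3 was -1.68 ± 0.21 (adjusted p = 9.39e-05).

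Of 22 other peroxisomal enzymes and membrane proteins tested, 12 rose and 2 fell with fasting in WT liver (12.5% and 13.8% of all genes). None passed in LKO liver, where 1.52% of all genes did. The membrane protein Pxmp4 rose by 1.10 ± 0.12 and the thioesterase Acot12 by 1.10 ± 0.14. In fed LKO liver 15 of 22 were lower and 2 higher (22.8% and 23.3% of all genes), with -2.89 ± 0.20 for the enoyl-CoA reductase Pecr, -2.47 ± 0.20 for Pxmp2 and -1.85 ± 0.15 for Acot4. When fasted, 18 were lower and none higher (28.1% and 28% of all genes). Values were -2.20 ± 0.15 for Acot4, -2.07 ± 0.14 for Phyh, which starts the breakdown of phytanic acid, and -1.85 ± 0.13 for Pxmp4. The fasting change was smaller in LKO liver for 8, among them Pxmp4 (-0.95 ± 0.17) and Scp2 (-1.16 ± 0.23), the gene of a sterol carrier and thiolase.

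Of 15 genes of peroxisome assembly, 8 rose with fasting in WT liver (12.5% of all genes), led by Pex16 (0.80 ± 0.12), Pex19 (0.64 ± 0.11) and Pex14 (0.61 ± 0.10). None passed in LKO liver, where only 1.52% of all genes did, so that count tells little about this list. In fed LKO liver 12 of 15 were lower (22.8% of all genes), with -1.28 ± 0.12 for Pex2, -1.67 ± 0.16 for Pex26 and -1.75 ± 0.21 for Pex11g. All 15 were lower in fasted LKO liver (28.1% of all genes), with -1.40 ± 0.10 for Pex6, -1.30 ± 0.12 for Pex16 and -2.27 ± 0.21 for Pex11g. The interaction passed for 2, among them Pex6 (-0.58 ± 0.14), whose call was lost with library sizes alone and with no filter.

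Of 18 regulators, 8 rose and 1 fell with fasting in WT liver (12.5% and 13.8% of all genes). Ppara was at 80.9, 62.4 and 70.5 CPM in fed WT and 99.2, 143 and 121 CPM in fasted WT livers. LKO livers had 46.5, 55.8 and 47.9 CPM when fed and 52.5, 44.2 and 72.9 CPM when fasted. It rose by 0.76 ± 0.17 in WT liver (adjusted p = 0.00385), and in LKO liver the change was 0.17 ± 0.17 (adjusted p = 0.652). The difference between these, -0.59 ± 0.24, did not pass (adjusted p = 0.135), and Ppara was lower in LKO liver, at -0.51 ± 0.17 when fed and -1.10 ± 0.17 when fasted. The fed call of Ppara was lost without fed WT library a or c, without fed LKO library a or c and with library sizes alone. Creb3l3, a liver transcription factor active in fasting, rose by 1.24 ± 0.14 in WT and by 0.75 ± 0.14 in LKO liver (adjusted p = 0.0182), the latter a call lost without fed or fasted LKO library a or c and with only the compared groups. The coactivator Ppargc1a rose by 2.25 ± 0.29 in WT liver, and the fasting changes differed by -3.46 ± 0.41 (adjusted p = 0.000166). Acaca, which makes malonyl-CoA, the inhibitor of Cpt1a, fell by 1.02 on the log2 scale in WT liver with fasting and was lower in fed LKO liver, at -0.76 ± 0.16. Sirt3, a mitochondrial deacetylase, was lower in LKO liver, at -1.36 ± 0.17 when fed and -2.56 ± 0.17 when fasted, and its fasting changes differed by -1.21 ± 0.24. Pparg was higher, at 1.28 ± 0.19 and 1.58 ± 0.20, and Rxra was lower in fasted LKO liver, at -0.92 ± 0.11. The interaction of Ppargc1b was -1.24 ± 0.30 (adjusted p = 0.0121).

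The MEF values are on the deposited log2 scale after a variance-stabilizing transformation, and columns are named here by their headings. Mat2a, which encodes the methionine adenosyltransferase whose mRNA is known to rise when methionine is scarce, had means (± SD, n = 3) of 12.34 ± 0.11 under GFP basal, 12.17 ± 0.05 under GFP deprived, 13.89 ± 0.08 under GFP 1 h replenished and 13.77 ± 0.04 under GFP 4 h replenished. Under CRE the means were 13.60 ± 0.02, 13.59 ± 0.04, 11.80 ± 0.09 and 11.43 ± 0.50 in the same order. The level was thus high under 4 headings that mix basal, deprived and replenished medium, and low under the other 4. For this reason no direction below is assigned to Vps15 or to methionine. Pik3r4 had means of 9.91 ± 0.11, 9.64 ± 0.04, 9.90 ± 0.05 and 9.73 ± 0.01 under GFP, in the same order. Under CRE its means were 10.13 ± 0.02, 9.855 ± 0.10, 10.05 ± 0.03 and 9.78 ± 0.04, none below the GFP mean of the same medium. Pik3r4 was called higher under CRE than GFP under basal, deprived and 1 h replenished headings. The differences were 0.23 ± 0.05, 0.21 ± 0.05 and 0.15 ± 0.05 (limma adjusted p = 0.000332, 0.000557 and 0.0163). As in liver, values over the whole gene do not check a deletion of part of it. Fibroblast markers were high, with Col1a1 at 14.83 to 15.64 and Vim at 15.8 to 16.78, except Thy1 at 4.17 to 4.75. Hepatocyte markers were low, with Alb at 0 to 2 recovered counts a library and Apoa2 at 6 to 22. The exception was Ass1, at 1589 to 2365 recovered counts (10.63 to 11.27). Library 3 of CRE 4 h replenished stood apart, with a chi-square per degree of freedom of 18.03 and 20.04 against the other libraries of its group, where all other MEF pairs were at 5.14 or less.

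Of the 32 members, 28 were tested in MEFs, and Slc27a2, Bdh1, Ehhadh and Acaa1b lay under the filter, with at most 1, 2, 6 and 10 recovered counts in any library. The tested members were expressed at means from 6.71 for Abcd2 to 11.93 for Cpt1a. Between the headings the means of a member spanned from 0.18 for Eci1 to 0.95 for Abcd2 on the log2 scale. Under basal headings CRE had 19 members lower and 3 higher than GFP, where 28.6% and 29.7% of all genes were, 58.3% in all. Under deprived headings it had 22 lower and 4 higher (30.6% and 32%, 62.6% in all). Under 1 h replenished headings 3 were lower and 11 higher (28.1% and 26.9%, 55% in all), a split of 0 and 18 when each library was shifted to 1 median. Under 4 h replenished headings 1 was lower and 18 higher (29% and 30.8%, 59.8% in all), and 15 were called in all without the library that stood apart. Crat, as an example, differed between CRE and GFP by -0.42 ± 0.05 under basal, -0.50 ± 0.05 under deprived and 0.45 ± 0.05 under 1 h replenished headings. Etfdh differed by -0.36 ± 0.05, -0.37 ± 0.05, 0.22 ± 0.05 and, under 4 h replenished headings, 0.33 ± 0.05.

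Between headings of 1 virus, deprived against basal had 12 members lower and 0 higher under GFP (13.6% and 10% of all genes), and 7 lower without GFP basal library 1 or without library 2. Under CRE it had 16 lower and 1 higher (13.5% and 15%). The 1 h replenished against deprived headings had 15 lower and 3 higher under GFP (28.8% and 30.7%, 59.5% in all), a split of 17 and 1 with libraries shifted to 1 median. Under CRE they had 2 lower and 21 higher (30.1% and 30%, 60.1% in all). The 4 h against 1 h replenished headings had 17 lower and 1 higher under GFP (18.8% and 17.9%, 36.7% in all) and 12 lower and 0 higher under CRE (12% and 13.4%). Cpt1a had means of 11.93 ± 0.08, 11.79 ± 0.09, 11.72 ± 0.10 and 11.29 ± 0.04 under GFP basal, deprived, 1 h and 4 h replenished. Under CRE its means were 11.87 ± 0.07, 11.38 ± 0.01, 11.71 ± 0.05 and 11.42 ± 0.07. Acadm had 10.75 ± 0.04, 10.53 ± 0.07, 10.55 ± 0.09 and 9.96 ± 0.05 under GFP. Under CRE Acadm had 10.61 ± 0.05, 10.16 ± 0.03, 10.76 ± 0.04 and 10.47 ± 0.01. Both genes were lowest under GFP 4 h replenished and next lowest, for Acadm and Cpt1a alike, under CRE deprived. The deprived-against-basal change differed between CRE and GFP headings for these 2 members (1.55% of all genes in that direction, 3.23% in the other, 4.78% in all), by -0.34 ± 0.07 for Cpt1a and -0.24 ± 0.06 for Acadm (limma adjusted p = 0.0032 and 0.0248). The call of Acadm was lost with no filter and without library 3 of GFP basal, libraries 1 or 2 of GFP deprived, library 1 of CRE basal, or libraries 1 or 2 of CRE deprived.

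**Figure D5:**
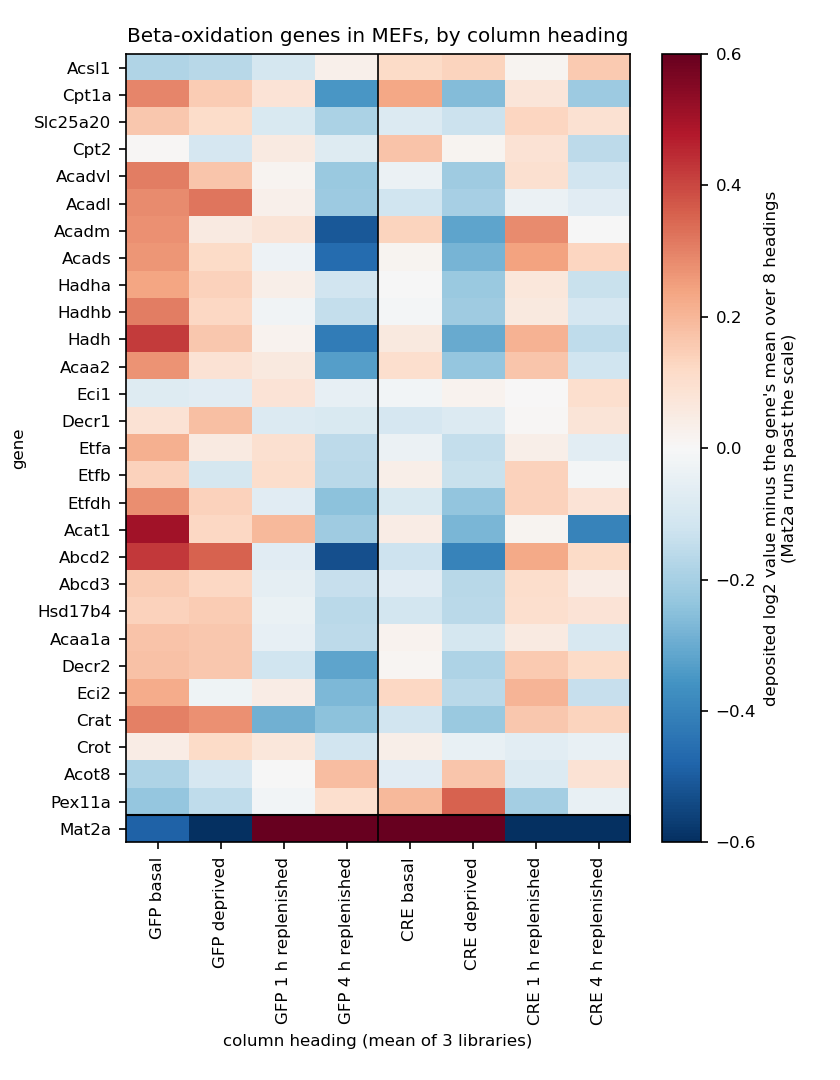
Rows are the 28 tested genes and Mat2a, columns are the 8 column headings, and colour is the mean deposited log2 value of 3 libraries minus the mean of the gene over the 8 headings. Of the 28 genes, 18 are highest under GFP basal and 17 lowest under GFP 4 h replenished, and Mat2a, which runs past the colour scale, is high under GFP 1 h and 4 h replenished and CRE basal and deprived.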

How the data were processed

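The members and the lists of other genes were chosen with earlier results of these data known. Liver values are raw read counts per gene as deposited by the authors. Per the submitters' processing notes HISAT2, Subread, DESeq2 and edgeR were used on mm10, with other versions not given in the sources used here. The dUTP library keeps strand, per the labels' protocols, while the strand setting of the counting is not given there. Of 136300 identifiers, 87774 were NONCODE entries with 20.5 to 24.8% of the counts, and 48058 of 48526 Ensembl identifiers were given a symbol from GENCODE M21. MEF values are log2 values after a variance-stabilizing transformation as deposited, made with STAR 2.7.10b, featureCounts, DESeq2 and limma on mm10, per the submitters' processing notes. Counts recovered from them were whole within 0.01 for 100% of values, summed to 19345029 to 21245006 per library and were used for depth and in some alternatives.

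The liver was tested with edgeR 4.0.16 (filterByExpr, TMM, robust quasi-likelihood test, 1 mean per group over 12 libraries, R 4.3.3) and MEF values with limma 3.58.1 (trend, robust, 24 libraries) over 13914 genes with a mean at least 1 above the lowest value, 4.17. Benjamini-Hochberg adjustment ran over all genes tested, with a threshold of 0.05. The SE in liver was the size of the log2 change divided by the root of F. Both fits were tested on simulated data. Libraries of 1 group differed by more than sampling noise (chi-square per degree of freedom 7.4 to 16.7 in liver). Nothing in the labels says that the libraries of a group came from separate animals or cultures, so p-values measure the spread between these libraries. Liver columns carry no replicate number, and libraries are called a, b and c. Alternatives were DESeq2 1.42.0, other scalings, no filter, Ensembl genes only, only the compared groups, the replicate block in MEFs and each library left out. Members are given by role, with those of smallest adjusted p or opposite direction library by library, the others by range, and Acaa1a and Acaa1b together. Of the other genes, up to 3 per list with the smallest adjusted p were named, plus Ppara, and some further genes of these lists are counted but not reported here by name. Promoter windows are RefSeq's, on GRCm38.p6, and those of 27 of 33 members were used. Members on chromosome 18, Acaa2 and Hsd17b4, were left out of this search.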

Additional observations from a re-analysis of the deposited data

Results flagged for a closer look

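For 23 of the 33 genes, the fasting change differed between LKO and WT liver by the interaction test of edgeR (adjusted p under 0.05). The values are the log2 change in LKO minus that in WT liver, so a negative value is a smaller or opposite change in LKO liver. In uptake and the carnitine shuttle the differences were -1.13 for Slc27a2, -1.46 for Acsl1, -1.64 for Cpt1a, -0.91 for Slc25a20 and -0.76 for Cpt2. In the mitochondrial spiral they were -0.71 for Acadvl, -0.91 for Acadm, -0.84 for Acads, -0.83 for Hadha, -1.09 for Hadhb, -0.74 for Hadh, -1.15 for Eci1 and -0.66 for Decr1. In electron transfer and ketone body formation they were -0.76 for Etfa, -0.73 for Etfdh and -0.95 for Acat1. In peroxisomes they were -0.71 for Hsd17b4, -0.55 for Acaa1a, -1.06 for Decr2, -1.06 for Eci2, -1.54 for Crat, -1.90 for Crot and -0.94 for Acot8.

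Of the other genes of the pathway, the same test gave 1.23 for Bdh2 and 2.23 for Slc16a6 among ketone body genes. It gave -1.68 for Acsm3, -2.58 for Slc27a1 and -1.92 for Slc22a5 among mitochondrial and uptake genes. Peroxisomal enzymes and assembly genes had -1.16 for Scp2, -0.95 for Pxmp4 and -0.58 for Pex6. Regulators had -3.46 for Ppargc1a, -1.24 for Ppargc1b and -1.21 for Sirt3. These are part of the 31 genes of the pathway lists that passed, 26 with a lower and 5 with a higher fasting change in LKO liver. Of the genes given here, Slc16a6 and Bdh2 had the higher change. Another 3 with a higher change are among the mitochondrial and uptake genes, and 2 ketone body genes had a lower one.

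In MEFs the difference between deprived and basal headings was itself different between CRE and GFP headings for Cpt1a, by -0.34, and for Acadm, by -0.24 on the log2 scale (limma's interaction term, adjusted p = 0.0032 and 0.0248). The levels of Mat2a under these headings, given above, bear on what each heading holds.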

How the results depend on the processing

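The count of members called, both directions added, was within 1.5 times under the alternatives run in liver for fasting in WT, for both genotype comparisons and for the interaction, although in fed liver the split of 26 lower and 1 higher in LKO became 16 and 3 with library sizes alone. With 1 library left out the added counts were 29 to 31, 25 to 26, 32 to 33 and 18 to 26. For fasting in LKO liver the count of 2 became 6 with no filter, 5 with Ensembl genes only, 5 with DESeq2, 0 with only the compared groups in the fit and 0 to 2 with 1 library left out. In MEFs the count for deprived against basal under GFP, 12, became 7 to 12 with 1 library left out, and the 2 members of the deprivation by label interaction became 1 with no filter and 1 to 2 with 1 library left out. Values close to 0 turned sign in some settings. For fasting in LKO liver without 1 library the changes ran from -0.207 to 0.137 for Slc27a2, -0.0161 to 0.188 for Cpt2, -0.0958 to 0.19 for Etfb, -0.123 to 0.0886 for Etfa, -0.34 to 0.0826 for Acat1 and -0.15 to 0.0634 for Acaa1a. For Ppara they ran from -0.0469 to 0.324. With no filter Slc27a2 was at 0.000735 and Acaa1a at 0.00941. For LKO against WT in fed liver with 1 library left out Cpt1a ran from -0.13 to 0.172 and Eci2 from -0.157 to 0.101, with Eci2 at -0.00899 with Ensembl genes only. With library sizes alone Acadl was at 0.255, Hadha at 0.00697, Hadhb at 0.109, Acot8 at 0.0999 and Pex11a at 0.0982. The interaction of Ehhadh ran from -0.132 to 0.229 with 1 library left out. Of the values tabulated under alternatives for the genes named in each comparison, which leave out some members in LKO fasting and most in MEFs, 3171 kept direction and side of the threshold, 133 lost their call, 36 gained one and 29 turned sign. Apart from fewer libraries or genes in a fit, the cause was not tested. No paired analysis was possible because the liver columns carry no replicate number. In MEFs the correlation of same-numbered libraries was -0.134 to 0.23, and in 0 of 10 comparisons were all 3 pairs over 0.1. With the replicate block, CRE against GFP had 22, 25, 14 and 19 members called under basal, deprived, 1 h and 4 h replenished headings, and the interaction had 2. In MEFs Acaa1b, Bdh1, Ehhadh and Slc27a2 held 10 counts or fewer in every library and were not tested.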
